A study of Rattus norvegicus with 32 samples.

Results

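Atp1b1 encodes a beta subunit of the sodium pump, and its transcript was followed in rat lung after hemorrhage. The gene was chosen by its symbol in the probe annotation, with earlier results of these data known. It was represented by 1 probe, printed as 2 spots, and was 1 of 5022 named genes on the array. RefSeq places the rat gene on chromosome 13, at 79319708 to 79340226 in the GRCr8 assembly. The arrays carried cDNA spots without coordinates, so which part of the transcript the spots cover is not known here.

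The sodium pump, or Na,K-ATPase, moves sodium out of the cell and potassium into it at the cost of ATP. Its catalytic alpha subunit needs a beta subunit to fold, leave the endoplasmic reticulum and reach the membrane, and small FXYD proteins tune its affinity for ions. In the lung the pump sits in the basolateral membrane of the alveolar epithelium, where sodium that enters through apical channels such as ENaC is pumped out and water follows, which clears fluid from the airspaces.

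Lung RNA was compared on 2-colour spotted cDNA arrays with a reference pool of RNA from organs of untreated rats, 1 array per lung. Male Sprague-Dawley rats of 280 to 300 g carried 2 arterial catheters, placed under isoflurane 7 to 10 days earlier, and 40% of the estimated blood volume was withdrawn through one of them. Lungs were collected 1, 3, 6, 16, 24, 48 and 72 h later. Sham rats carried the catheters and were not bled, while control rats had neither catheters nor bleeding. The labels do not tie a sham lung to one of the times. The reference pool contained lung itself, along with brain, heart, jejunum, kidney, liver, skin, spleen and skeletal muscle. The labels speak of 10 organs but name only these. The analysis held 30 arrays: 3 control, 5 sham, 5 at 6 h, 2 at 16 h and 3 at each of the other times. The labels speak of each rat's lung but number no animals, so every p-value below rests on the spread among these arrays, part of which may be technical.

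All levels below are log2 ratios of lung over pool after subtraction of the array's median, so 0 means the typical ratio of that array. Liver markers (22 genes) had a median log2 ratio of 3.17 on sham replicate 2 and of 2.31 on replicate 3 at 16 h, against -1.002 to 0.489 on the other 30 arrays, and these 2 arrays were left out. Lung epithelial markers stood above the pool in the control lungs, with mean log2 levels of 0.87 for 12 type II pneumocyte genes, 1.04 for 7 type I genes and 1.06 for 5 club cell genes. The dye that marked the lung is not given in the sources used here. Known genes gave the direction of the ratio, as the median of the lung markers was above that of the liver markers on 30 of 30 arrays. These 30 were left after 2 arrays had been excluded for liver signal, so the count was partly set by that exclusion. On those 2 arrays the type II median was -0.69 and 0.59, below the liver median. In whole-lung RNA, fewer cells of a type and less RNA per cell cannot be told apart.

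Atp1b1 stood above the array's typical ratio at 1 and 3 h after hemorrhage and below it from 6 h onward. At 1 h the log2 ratio was 0.83, 1.61 and 1.59 on the 3 arrays, and at 3 h it was 0.80, 0.66 and 0.74. At 6 h the 5 arrays gave -0.15, -0.22, -1.57, -0.73 and -0.07. The 6 arrays at 1 and 3 h therefore lay between 0.66 and 1.61, without any overlap with those at 6 h.

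At the later times the levels were also below 0. The 2 arrays at 16 h gave -1.20 and -0.22. At 24 h the values were -0.37, -0.61 and -0.70, at 48 h -0.52, -0.18 and -0.87, and at 72 h -0.52, -0.52 and -1.04. All 16 arrays from 6 h on lay between -1.57 and -0.07. This division at 6 h was seen in the values, so it is described here without a test.

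In the unbled lungs the group means of Atp1b1 lay between these levels, although the arrays spread widely. The control arrays gave 0.31, 0.49 and -0.19. The sham arrays (replicates 1, 3, 4, 5 and 6) gave -0.02, 0.61, 1.39, 0.12 and 0.09, so sham replicate 4 was the highest of the 8 unbled arrays and overlapped the range at 1 h. All 16 arrays from 6 h on lay below the lowest sham array. Control replicate 3 (-0.19) lay within their range, and 13 of the 22 bled arrays lay below it.

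**Figure D1:**
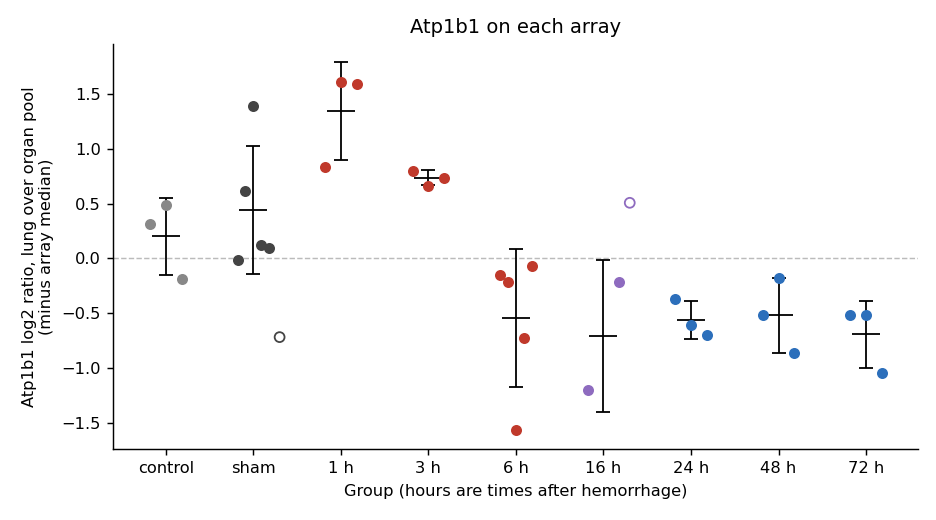
Atp1b1 log2 ratio of lung over organ pool on each array (vertical axis) by group (horizontal axis); filled points are the 30 arrays used, open points the 2 arrays left out, and black bars the group mean ± SD. The 6 arrays at 1 and 3 h lie at 0.66 to 1.61, and the 16 filled points from 6 h on lie between -1.57 and -0.07.

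As group means, Atp1b1 was at 0.20 ± 0.35 (SD, n = 3) in control lungs and 0.44 ± 0.59 (SD, n = 5) in sham lungs. It was at 1.34 ± 0.45 (SD, n = 3) at 1 h and 0.73 ± 0.07 (SD, n = 3) at 3 h. It was at -0.55 ± 0.63 (SD, n = 5) at 6 h and -0.71 ± 0.70 (SD, n = 2) at 16 h. The last 3 times were at -0.56 ± 0.17, -0.52 ± 0.34 and -0.69 ± 0.30 (SD, n = 3 each). On the linear scale the mean of the logs corresponds to 2.54 times the array's typical ratio at 1 h, 1.36 times in sham lungs and 0.618 times at 72 h.

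Ordered by mean from high to low, the groups ran 1 h, 3 h, sham, control, 48 h, 6 h, 24 h, 72 h and 16 h. No neighbouring pair in this order differed beyond the fitted error, since the 95% interval of all 8 differences included 0. The order came from these same means, so neighbours are the closest groups. Their intervals say nothing of groups further apart. The widest step was that from control to 48 h, 0.72 (95% interval -0.05 to 1.49). The step from 1 h to 3 h was 0.61 (95% interval -0.16 to 1.38) and was the only one of the 8 in which the 2 groups' arrays did not overlap. The 5 groups from 6 h on spanned so little that each neighbouring difference among them was 0.13 or less.

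The question of the series was how lung transcripts change with time after blood loss, and Atp1b1 was tested in each comparison this design allows, in a limma fit of 6112 probes over the 30 arrays. A joint test of any of the 7 times against sham called Atp1b1 (F = 9.27, adjusted p = 0.00517), as it did 5.66% of all probes, and Atp1b1 ranked 14 of 6112 by its p-value. This test says that at least 1 time differed from sham and not which. Because earlier results of these data were known, the ranks and p-values of Atp1b1 here and below are not those of a gene picked blind.

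The comparison of early lungs (the mean of the 1, 3 and 6 h groups) with late lungs (the mean of the 24, 48 and 72 h groups) called Atp1b1 higher early. The means were 0.51 and -0.59, a log2 difference of 1.10 ± 0.21 (SE, 95% interval 0.67 to 1.53, 11 against 9 arrays, adjusted p = 0.00342), or 2.15-fold. Of all probes 7.12% were called in this comparison, 271 higher and 164 lower early, and Atp1b1 ranked 32 by p-value and 93 by size. Of the 11 early arrays, 8 were above the highest late array (-0.18), and 1, an array at 6 h, was below the lowest. The 6 h group was counted as early, although its mean of -0.55 was close to the late means. A two-sided permutation test over all 167960 exact assignments of the 20 arrays, on the plain difference of 0.91, gave p = 0.0144, or 0.0655 after Benjamini-Hochberg adjustment over the 11 comparisons.

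Against sham, Atp1b1 was called lower at 72 h only. The difference was -1.13 ± 0.34 (SE, 95% interval -1.82 to -0.44, 3 against 5 arrays, adjusted p = 0.0451), so the sham level was 2.19-fold higher. The background of calls at 72 h was 5.87% of all probes. The arrays did not overlap, and the exact two-sided permutation p was 0.0179, the smallest that 3 against 5 arrays can give (0.0655 after adjustment over the 11 comparisons). The call was lost when any 1 of the 3 arrays at 72 h was left out (highest adjusted p = 0.243, without replicate 3), and also without sham replicate 3, 4 or 5. It was narrowly lost as well without control replicate 2, replicate 3 at 1 h, replicate 2 or 4 at 6 h or replicate 1 at 48 h, which enter only the estimate of spread (adjusted p = 0.0506 to 0.0516).

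The other late times gave differences of like size that were not called. At 24 h the difference from sham was -1.003 ± 0.335 (SE, adjusted p = 0.0872, where 3.52% of all probes were called), and at 48 h it was -0.96 ± 0.34 (SE, adjusted p = 0.149, where 1.18% were called). At 16 h it was -1.15 ± 0.38 (SE, adjusted p = 0.193, where 0.0654% were called). The arrays of each of these times lay entirely below those of the sham group. Even so, the exact two-sided permutation p was 0.0952 at 16 h and 0.0536 at both 24 h and 48 h. After Benjamini-Hochberg adjustment over the planned comparisons these were 0.150 at 16 h and 0.0982 at both 24 h and 48 h. Whether 72 h differed from the other late times was tested only between neighbours, given below.

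At 6 h, the earliest time at which the level lay below sham, the difference was -0.99 ± 0.29 (SE, 95% interval -1.58 to -0.39, 5 against 5 arrays, adjusted p = 0.0951). At 6 h 0% of all probes were called, while 1147 had an unadjusted p under 0.05. The unadjusted p of Atp1b1 in the fit was 0.00226 at 6 h and 0.00236 at 72 h. That only 72 h was called therefore came from the adjustment over all probes and not from a smaller p. The exact two-sided permutation p for Atp1b1 was 0.00794, the smallest that 5 against 5 arrays can give, and 0.0655 after adjustment over the 11 comparisons.

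At 1 h the level was above sham, with a difference of 0.90 ± 0.34 (SE, 95% interval 0.21 to 1.59, adjusted p = 0.379). Again 0% of all probes were called, and 667 had an unadjusted p under 0.05. Of the 3 arrays at 1 h, 2 were above the highest sham array, and the exact two-sided permutation p was 0.0536. At 3 h the difference was 0.29 ± 0.34 (SE, 95% interval -0.40 to 0.98, adjusted p = 0.618), where 2.98% of all probes were called. The 3 arrays at 3 h all lay inside the range of the sham arrays.

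The mean of the 7 times averages levels above and below sham. It differed from sham by -0.58 ± 0.23 on the log2 scale (SE, 95% interval -1.05 to -0.11, adjusted p = 0.135), where 3.4% of all probes were called. Against control the mean of the 7 times differed by -0.34 ± 0.28 (SE, 95% interval -0.92 to 0.25, adjusted p = 0.462), where 8.07% were called (493 probes, but only 3 without control replicate 1). Sham exceeded control by 0.24 ± 0.34 (SE, 95% interval -0.45 to 0.93, adjusted p = 1.00), where 0% of all probes were called and 291 had an unadjusted p under 0.05. This last difference rested on sham replicate 4, without which it was -0.000634. The 7 comparisons with sham share the same 5 sham arrays, so they are not independent of each other.

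**Figure D2:**
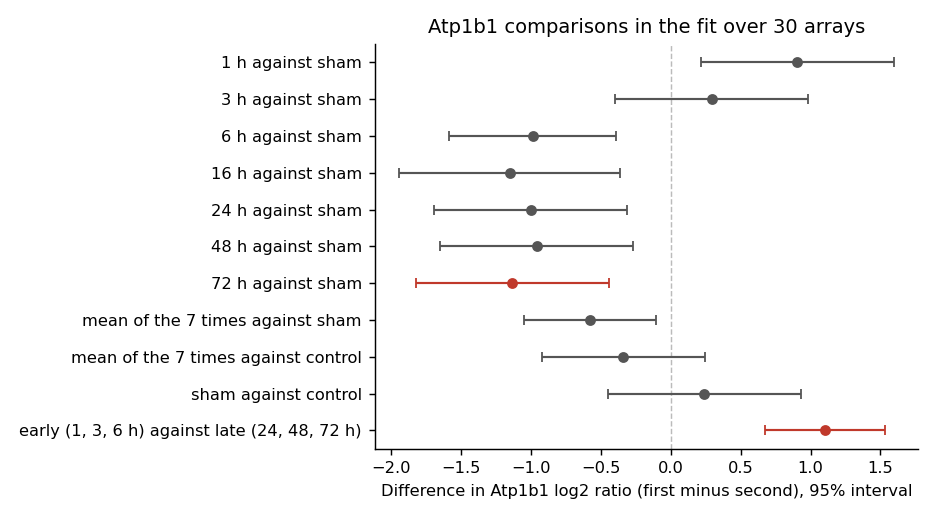
Difference in the Atp1b1 log2 ratio (horizontal axis, first group minus second) for the 11 comparisons, with 95% intervals from the fit over 30 arrays; red marks an adjusted p under 0.05. Only 72 h against sham (-1.13) and early against late (1.10) are red, while the intervals at 6, 16, 24 and 48 h also lie below 0.

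Steps between neighbouring times were computed after the values had been seen. The largest was from 3 h to 6 h, where Atp1b1 differed by -1.28 ± 0.34 (SE, 95% interval -1.97 to -0.59, adjusted p = 0.0549), a 2.43-fold lower level that was not called, as against 0.933% of all probes that were. From 1 h to 3 h the difference was -0.61 ± 0.37 (SE, adjusted p = 0.604, where 0% were called and 629 probes had an unadjusted p under 0.05). From 6 h to 16 h it was -0.16 (adjusted p = 1.00, with 0.0164% called) and from 16 h to 24 h 0.15 (adjusted p = 0.982, with 0.0164% called). From 24 h to 48 h it was 0.04 (adjusted p = 0.994, with 0.0327% called), and from 48 h to 72 h -0.17 (adjusted p = 0.919, with 0% called and 408 probes at an unadjusted p under 0.05).

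The 2 spots of Atp1b1 gave nearly the same picture. Their values correlated at 0.977 over the 30 arrays, which share the gene and the hybridisation, and differed by a median of 0.101 and at most 0.41 on the log2 scale. The lowest linear ratio of an Atp1b1 spot was 0.28, well above the lowest deposited ratio of 0.01. The SD between arrays within a group was 0.467 for Atp1b1, near the median of 0.442 over all probes.

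With the 2 liver-signal arrays put back, the sham group gained an array at -0.72 and the 16 h group one at 0.51. Early against late, which uses neither group, remained at 1.10 (adjusted p = 0.0133), and the joint test gave F = 6.28 (adjusted p = 0.024). At 72 h against sham the difference was then -0.94 (adjusted p = 0.160), and at 6 h -0.79 (adjusted p = 0.198). At 16 h it was -0.55 (adjusted p = 0.415), at 24 h -0.81 (adjusted p = 0.255) and at 48 h -0.77 (adjusted p = 0.375). The 1 h level was 1.10 above sham (adjusted p = 0.569) and the 3 h level 0.49 above it (adjusted p = 0.519). The mean of the 7 times then differed from sham by -0.33 (adjusted p = 0.442) and from control by -0.28 (adjusted p = 0.643), and sham differed from control by 0.04 (adjusted p = 0.999). With the 32 arrays, no time against sham was called for Atp1b1.

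Of 15 sodium pump genes listed, 11 were on the array, and all 11 were tested. Among the catalytic subunits, only Atp1a4, the isoform known from testis and sperm, was named on the array. Whether its spots also hybridise to transcripts of the other alpha genes was not tested. Of the 11 genes, 2 were called higher early than late (Atp1b1 and Atp1a4) and 0 lower, where 7.12% of all probes were called. The median early minus late difference of the 11 was 0.07, against 0.00 over all probes, with 6 of 11 above 0.

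The group means of Atp1a4 followed those of Atp1b1 in direction. The Atp1a4 log2 ratio was 0.96, 1.21 and 0.60 at 1 h and -0.68, -0.65 and -0.86 at 72 h, against 0.51, 0.15, 1.10, 0.23 and 0.54 in the 5 sham lungs. The 3 arrays at 72 h thus lay below all the sham arrays. At other times single Atp1a4 arrays divided less cleanly than those of Atp1b1. They gave 1.33, 0.45 and -0.04 at 3 h, -0.02, -0.63 and 0.03 at 24 h, and -0.02, 0.60 and -1.10 at 48 h. The early minus late difference was 0.87 ± 0.20 (SE, adjusted p = 0.0116), and Atp1a4 was lower at 72 h than in sham lungs (-1.24 ± 0.32, SE, adjusted p = 0.0246). At 6 h the mean Atp1a4 level was 0.00 ± 0.26 (SD, n = 5), between its early and late levels. With all 32 arrays neither Atp1a4 difference was called (adjusted p = 0.0555 for early against late and 0.0723 at 72 h), and the 72 h call was also lost without sham replicate 4 and without replicate 2 or 3 at 72 h (highest adjusted p = 0.145).

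The other beta subunits were called in none of the 11 comparisons. Atp1b3, the isoform found widely across tissues, had a mean log2 level of 1.06, 0.79 and 1.00 at 1, 3 and 6 h, and of 0.19, 1.11, 0.62 and 0.92 at 16, 24, 48 and 72 h. It was at 0.31 in sham and 0.62 in control lungs, so the level at 16 h lay below sham and that at 48 h near control. At 6 h its 5 arrays ran from 0.65 to 1.33, while those of Atp1b1 were all below 0. Its early minus late difference was 0.07 (adjusted p = 0.886), and its mean over the 7 times was 0.50 above sham (adjusted p = 0.227). Atp1b2, the isoform best known from nervous tissue, lay below the typical ratio in all 9 groups, between -0.89 at 16 h and -0.14 in sham lungs, with an early minus late difference of -0.22 (adjusted p = 0.496). Atp1b4, a beta-like protein of muscle, differed by 0.24 (adjusted p = 0.415).

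Of the 6 FXYD genes, Fxyd5 was called lower at 72 h. Fxyd5 encodes dysadherin, which associates with the pump in epithelia. Its arrays at 72 h gave 0.02, -1.07 and -1.06, against -0.05, 0.29, 0.49, 0.04 and 0.10 in sham lungs, so 1 array at 72 h lay within the sham range. The Fxyd5 difference was -0.88 ± 0.26 (SE, adjusted p = 0.0468) at 72 h and 0.35 early minus late (adjusted p = 0.185). Fxyd5 was still called at 72 h in 19 of 40 other settings, and with all 32 arrays its adjusted p was 0.0586.

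The remaining FXYD genes were not called. Fxyd1 (phospholemman) had an early minus late difference of 0.40 (adjusted p = 0.059), with mean log2 levels of 0.57 to 0.61 at 1, 3 and 6 h. Of the late times 24 h was at 0.57, like the early ones, while 48 h was at 0.04 and 72 h at -0.06. The same difference was -0.37 for Fxyd2, the gamma subunit of kidney (adjusted p = 0.198), and -0.18 for Fxyd4, known as CHIF (adjusted p = 0.555). It was -0.09 for Fxyd6 (adjusted p = 0.926) and -0.03 for Fxyd7 (adjusted p = 0.926). At 72 h against sham 3 of the 11 genes were called lower (Atp1a4, Atp1b1 and Fxyd5) and 0 higher, where 5.87% of all probes were called, and the list's median was -0.13 against 0.02 over all probes. In the other comparisons with sham or control 0 of the 11 were called.

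**Figure D3:**
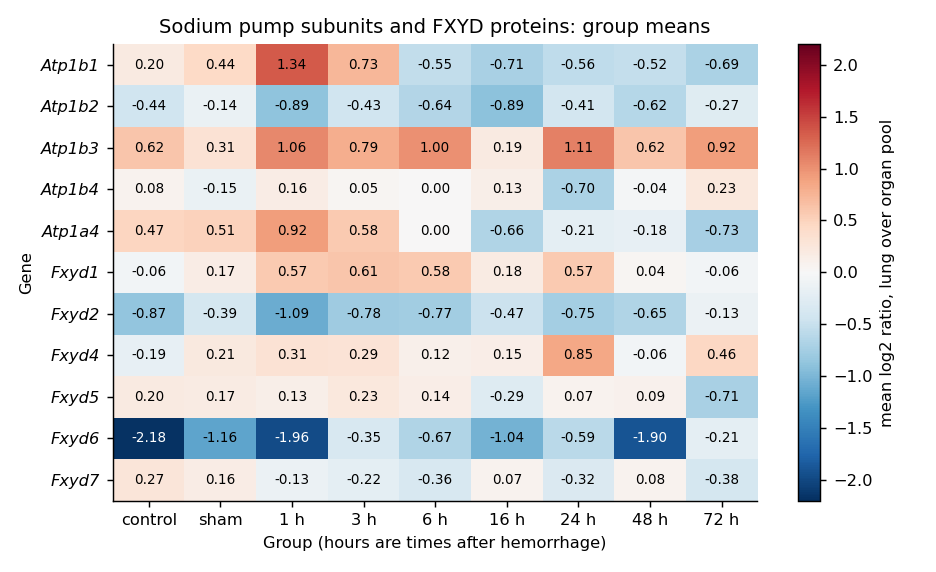
Mean log2 ratio of lung over organ pool (colour and printed value) for the 11 sodium pump and FXYD genes (rows) in the 9 groups (columns). Atp1b1 and Atp1a4 pass from above 0 at 1 and 3 h to below 0 from 16 h on, while Atp1b3 is above 0 in all 9 groups and Atp1b2 below 0 in all of them.

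The other cation pumps, a list of 12 measured genes that holds calcium, copper and proton pumps, had 0 calls in either direction early against late and a median of 0.10. At 24 h against sham 2 of the 12 were called lower, where 3.52% of all probes were called. Atp2a2, the calcium pump of the sarcoplasmic reticulum in heart, differed by -1.90 ± 0.54 (SE, adjusted p = 0.049), and Atp7a, a copper transporter, by -0.95 ± 0.27 (SE, adjusted p = 0.0481). The mean of the 7 times was above control for Atp2a3, by 0.80 ± 0.23 (SE, adjusted p = 0.0363), and below it for Atp7a (-0.96 ± 0.23, SE, adjusted p = 0.0168). Atp2a2 is also a heart muscle marker, and the median of that list of 13 was -1.25 to -0.47 on the early arrays and -1.39 to -0.68 on the late ones. The 24 h calls held in only 9 of 40 other settings for Atp2a2 and 14 of 40 for Atp7a. The size for Atp2a2 rested on 1 array: without replicate 3 at 24 h the difference was -0.68 (adjusted p = 0.42), and without replicate 2 it was -2.84 (adjusted p = 0.00251). Without control replicate 1 the Atp2a3 difference from control was 0.30 (adjusted p = 0.592), and its call was kept in 35 of 40 other settings.

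Among 45 measured genes of salt and water transport, which include the channels and exchangers that let sodium enter the cell, 3 were called higher early than late and 1 lower, with a median of -0.01. This share was close to the 7.12% of all probes called. Slc9a5, a sodium-proton exchanger, was higher early by 0.86 ± 0.19 (SE, adjusted p = 0.00999) and Slc4a2, an anion exchanger, by 0.75 ± 0.16 (SE, adjusted p = 0.00971). Asic1, an acid-sensing sodium channel, was higher by 0.37 ± 0.11 (SE, adjusted p = 0.0421). Aqp7, a water and glycerol channel, was lower early (-0.45 ± 0.13, SE, adjusted p = 0.0349).

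At 72 h against sham, Slc9a5 was lower (-1.18 ± 0.31, SE, adjusted p = 0.0244), as was Asic1 (-0.77 ± 0.18, SE, adjusted p = 0.0157), and Aqp7 was higher by 0.71 ± 0.21 (SE, adjusted p = 0.0412). Slc9a5 kept its early against late call in 40 of 40 other settings, Asic1 in 16 and Aqp7 in 26. Slc4a2 kept it in 39 and lost it with all 32 arrays (adjusted p = 0.394), where sham replicate 2 had a log2 ratio of -5.36. At 24 h against sham Slc4a2 was lower (-0.98 ± 0.26, SE, adjusted p = 0.0391), and with all 32 arrays the difference was -0.06 (adjusted p = 0.976).

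The subunits of ENaC, the apical sodium channel that supplies the pump, were not called early against late; like Aqp5 and Sgk1 below, they were picked for a known role with their values in view. The differences were 0.06 ± 0.22 for Scnn1a (SE, adjusted p = 0.897), 0.17 ± 0.17 for Scnn1b (SE, adjusted p = 0.573) and 0.04 ± 0.18 for Scnn1g (SE, adjusted p = 0.909). Aqp5, the water channel of type I cells, differed by 0.19 ± 0.20 (SE, adjusted p = 0.599). Sgk1, a kinase that raises the surface number of ENaC and the pump, differed by -0.13 ± 0.15 (SE, adjusted p = 0.62).

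Further members of the transport list passed at single times or in the pooled comparisons. Slc12a3, the thiazide-sensitive cotransporter, was lower at 3 h (-1.23 ± 0.30, SE, adjusted p = 0.0285). Asic2 was lower than sham at 24 h (-0.89 ± 0.24, SE, adjusted p = 0.0418) and over the 7 times (-0.61 ± 0.17, SE, adjusted p = 0.0439). Asic1 was also lower at 24 h (-0.65 ± 0.18, SE, adjusted p = 0.0436) and over the 7 times (-0.48 ± 0.12, SE, adjusted p = 0.0306). Slc9a2, another sodium-proton exchanger, was higher at 48 h by 1.05 ± 0.26 (SE, adjusted p = 0.0425) and over the 7 times by 0.66 ± 0.17 against sham (SE, adjusted p = 0.0356). Cnga2, a cyclic nucleotide-gated channel, was higher at 48 h by 1.52 ± 0.36 (SE, adjusted p = 0.0419). Aqp2 was higher over the 7 times than in control lungs, by 0.99 ± 0.25 (SE, adjusted p = 0.0226), but without control replicate 1 by 0.43 (adjusted p = 0.462).

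Several of these calls did not hold in every one of the 40 other settings. At 24 h the call was kept in 20 for Asic1, 30 for Asic2 and 31 for Slc4a2, and over the 7 times against sham in 35 for Asic1, 20 for Asic2 and 32 for Slc9a2. It was kept in 24 for Slc9a2 and 29 for Cnga2 at 48 h, and in 32 for Slc12a3 at 3 h. At 72 h it was kept in 36 for Asic1, 35 for Slc9a5 and 26 for Aqp7.

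Of 50 tested regulators of the pump and of ENaC, 2 were called higher early than late and 4 lower, where 7.12% of all probes were called, with a median of 0.05. Adcy4, an adenylyl cyclase, was higher early by 1.17 ± 0.19 (SE, adjusted p = 0.00128). Its mean log2 ratio was 1.47 at 1 h and 0.99 at 3 h, against 0.07 at 24 h and -0.15 at 72 h, and sham lungs were at 1.07. Edn1, the endothelin precursor, was higher early by 0.71 ± 0.19 (SE, adjusted p = 0.0241).

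The 4 regulators lower early were Agt, Arrb1, Hsd11b2 and Drd5. Agt, the precursor of angiotensin, differed by -0.68 ± 0.16 (SE, adjusted p = 0.0136) and Arrb1, a beta-arrestin, by -0.64 ± 0.16 (SE, adjusted p = 0.0164). Hsd11b2, which inactivates glucocorticoid at the mineralocorticoid receptor, differed by -0.71 ± 0.18 (SE, adjusted p = 0.0229), and Drd5, a dopamine receptor, by -1.02 ± 0.27 (SE, adjusted p = 0.0261). Adcy4 and Agt kept these calls in 40 of 40 other settings, Arrb1 and Hsd11b2 in 39, Edn1 in 38 and Drd5 in 34.

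At 72 h against sham 3 of the 50 regulators were called, all lower, a share close to the 5.87% of all probes called. Nr3c2, the mineralocorticoid receptor, gave -0.81, -1.38 and -2.04 at 72 h against 0.88, 0.51, 0.11, 0.41 and 0.31 in sham lungs. All 3 arrays at 72 h lay below every sham array. The Nr3c2 difference was -1.85 ± 0.32 (SE, adjusted p = 0.00195), and its call held in 40 of 40 other settings. Adcy4 was lower (-1.21 ± 0.30, SE, adjusted p = 0.0204), as was Drd2 (-1.75 ± 0.53, SE, adjusted p = 0.0486), the latter called in only 18 of 40 other settings. Without replicate 3 at 72 h the Drd2 difference was -1.04 (adjusted p = 0.386).

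At other times Tgfa, a ligand of the EGF receptor, was lower than sham at 3 h (-1.27 ± 0.28, SE, adjusted p = 0.0214), at 24 h (-1.56 ± 0.28, SE, adjusted p = 0.00527) and at 48 h (-1.23 ± 0.28, SE, adjusted p = 0.0419). Arrb1, Adcy5 and Agt were lower at 3 h, by -1.26, -1.58 and -1.14 (adjusted p = 0.0108, 0.0108 and 0.0224). At 24 h Prkcb, a protein kinase C, was lower (-0.98 ± 0.21, SE, adjusted p = 0.0103) and Ppp2ca, a catalytic subunit of protein phosphatase 2A, higher by 1.16 ± 0.31 (SE, adjusted p = 0.0408). Adcy4 was lower at 48 h (-1.18 ± 0.30, SE, adjusted p = 0.0489), a call kept in only 15 of 40 other settings (adjusted p = 0.0603 with all 32 arrays). Without replicate 3 at 3 h the Agt difference was -0.75 and was not called. With all 32 arrays the 3 h calls were lost for Arrb1, Adcy5 and Tgfa (adjusted p = 0.120, 0.0690 and 0.105). The Agt call at 3 h was kept there (adjusted p = 0.0366). The Tgfa call was kept in 34 of the 40 settings at 3 h, 38 at 24 h and 29 at 48 h, and the Ppp2ca call at 24 h in 31. At 1 h and at 6 h, where no probe was called, 0 members of these lists were called.

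Over the 7 times pooled, Nr3c2 was below sham (-0.96 ± 0.22, SE, adjusted p = 0.0169), as was Tgfa (-0.92 ± 0.19, SE, adjusted p = 0.0106). Against control, 5 of the 50 regulators were lower and 1 higher, where 8.07% of all probes were called. Their adjusted p-values lay between 0.0065 and 0.0433. Those lower were Nr3c2 (-1.42), Nedd4, a ubiquitin ligase of ENaC (-1.11), Tgfa (-1.01), Adcy4 (-0.83) and Prkcb (-0.67), and Ppp2ca was higher (0.93). Among the transport genes Nherf2, a scaffold of sodium-proton exchangers (-1.10), Asic2 (-0.89), Slc9a5 (-0.87) and Asic1 (-0.53) were below control and Slc9a2 (0.78) above it. The calls against control depended on control replicate 1. Of the 14 among the pumps, transport genes and regulators, 0 were kept without that array, and 6 without control replicate 2. The sizes moved less for some of these genes than for others. Over the 40 other settings Nr3c2 ran from -1.69 to -1.21 and Atp7a from -1.04 to -0.90. Aqp2 ran from 0.43 to 1.28 and Atp2a3 from 0.30 to 1.10.

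**Figure D4:**
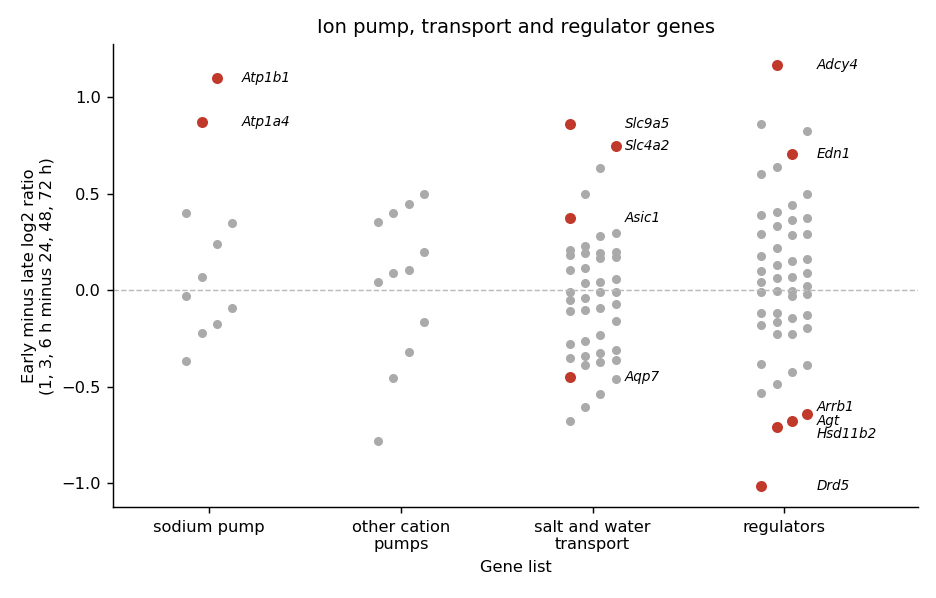
Early minus late log2 difference (vertical axis) of each measured gene in the 4 lists (horizontal axis); red points with names have an adjusted p under 0.05 over all 6112 probes, grey points do not. Atp1b1 (1.10) and Adcy4 (1.17) are the highest red points, and 0 of the 12 other cation pumps is red.

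Across the 30 arrays the probes most like Atp1b1 were ranked by Pearson's r, as a description, over 4838 named probes with a value on every array. The arrays share their groups and the reference pool, and the ranking used all the arrays at once. The middle 95% of these probes had r between -0.57 and 0.61, with a median of -0.03. The 5 highest were Fga (fibrinogen alpha chain, 0.82), Gnao1 (a G protein alpha subunit, 0.79), Sstr5 (a somatostatin receptor, 0.78), Atp1a4 (0.78) and P2ry1 (a receptor for extracellular nucleotides, 0.78). Spearman's rho was 0.88, 0.86, 0.85, 0.81 and 0.82 in the same order. The 3 lowest were Tcf4 (a transcription factor, -0.83), Lhb (the beta chain of luteinizing hormone, -0.75) and Srcin1 (an inhibitor of Src, -0.75).

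The group means of these genes, from the same arrays as the ranking, also divided after 3 h. Sstr5 was at 1.29 and 1.26 at 1 and 3 h and at 0.33 at 6 h, and P2ry1 passed from -0.43 and -0.53 to -1.49. Fga, the most like Atp1b1 and also a liver marker, was at -0.10 and -0.25 at 1 and 3 h, against -0.97 at 6 h and -1.47 at 72 h. Tcf4 ran the other way, from -1.53 and -1.40 to -0.09 at 6 h, and Srcin1 from -0.98 and -0.96 to 0.17. Unlike Atp1b1, Fga and Gnao1 at 1 h lay at -0.10 and -0.17, near their control means of -0.09 and -0.07. Among the sodium pump genes r with Atp1b1 was 0.40 for Fxyd5, 0.32 for Fxyd7, 0.22 for Atp1b2 and -0.01 for Atp1b3, and between -0.14 and 0.12 for the other FXYD genes and Atp1b4.

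**Figure D5:**
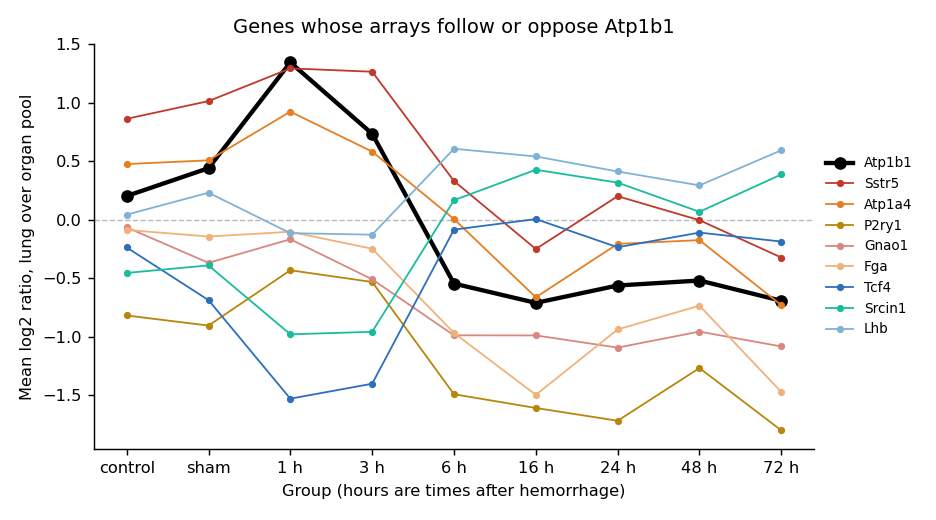
Group means of the log2 ratio of lung over organ pool (vertical axis) in the 9 groups (horizontal axis) for Atp1b1 (black), the 5 genes with the highest correlation with it over the 30 arrays and the 3 with the lowest. Atp1b1 passes from 0.73 at 3 h to -0.55 at 6 h, and Tcf4 from -1.40 to -0.09.

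Marker genes of other cell types moved in part with Atp1b1, and their part in its differences was not tested. General epithelial markers (6 genes) had a median of -0.35 to 0.11 on the sham arrays and -1.38 to -0.59 on those at 72 h, without overlap, and 2 of the 6 were called lower at 72 h, where 5.87% of all probes were called. Type II markers had a median of 0.62 to 1.86 in sham lungs and 0.57 to 0.80 at 72 h, with 2 of 12 called lower, and type I markers 1.06 to 2.38 and 0.86 to 1.45, with 1 of 7 called lower. Club cell markers (5 genes) had a median of 0.87 to 1.99 in sham lungs and 0.86 to 1.24 at 72 h, with 2 of 5 called lower. Endothelial markers (5 genes) ranged from 0.20 to 0.78 on the early arrays and from -0.27 to 0.38 on the late ones, and at 72 h 1 of 5 was called lower and 1 higher. Higher early than late were 2 of 6 general epithelial, 2 of 5 club cell, 1 of 12 type II, 1 of 7 type I and 0 of 5 endothelial genes, where 7.12% of all probes were called, and 0 members of these lists were lower.

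At 6 h, where Atp1b1 was already below sham, 9 of the 12 type II genes were also below sham, with a median difference of -0.54 against 0.02 over all probes. From 3 h to 6 h 10 of the 12 were lower, with a median of -0.27. The type II level was 0.76 to 0.94 on the 6 h arrays and the type I level 1.19 to 1.65, within the wide ranges of the sham arrays. Of the club cell genes 3 of 5 were below sham at 6 h (median -0.53) and of the type I genes 5 of 7 (median -0.16). At 6 h against sham 0 genes of these lists were called, as were 0 of all probes.

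Over the 30 arrays, the correlation of Atp1b1 with the median of each marker list was 0.48 for endothelium, 0.46 for brain, 0.38 for club cells, 0.34 for general epithelium, 0.33 for type II cells and 0.30 for kidney. It was 0.17 for neutrophils, 0.10 for type I cells, 0.05 for liver, 0.03 for leukocytes, -0.000376 for erythroid cells and -0.04 for heart muscle. Named with their values in view, the club cell markers Scgb1a1 (secretoglobin, r = 0.74) and Cyp4b1 (a cytochrome P450, r = 0.74 on 1 of its 2 probes and 0.30 on the other) ranked 17 and 19 in likeness to Atp1b1. The other club cell markers, named to complete that list, had a lower r: 0.43 for Fmo2, 0.25 for Aldh1a1 and 0.05 for Cyp2f4. These arrays share the reference pool and the groups, so the values are a description. One array at 3 h (replicate 2) correlated less with the rest, at a median of 0.277. Control replicate 1 (0.391) and replicate 2 at 48 h (0.395) came next among the 30 arrays. Without replicate 2 at 3 h the early against late difference of Atp1b1 was 1.11 (adjusted p = 0.00481).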

How the data were processed

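Each array held 13056 spots, of which 12151 to 12895 had a value. The authors deposited log2 ratios. Neither dye nor scanner nor normalization is named in the sources used here. Each array's median (-0.377 to 0.0566) was subtracted, and spots of an accession were averaged. The 2388 spots without an accession were averaged in pairs of consecutive spot numbers and count among the probes. Probes measured on 2 or more arrays in each group were kept (6112 of 6344). Symbols came from the platform annotation. A single linear model of the 9 groups was fitted to the 30 arrays with limma (version 3.58.1, R version 4.3.3) and its moderated two-sided tests were used; the calculation was tested on simulated data. Adjusted p is Benjamini-Hochberg over all 6112 probes, and under 0.05 is a call. Exact permutation tests of single comparisons exchanged arrays. Named genes are the sodium pump list, called members of the other 3 lists and the 5 most and 3 least correlated genes; a gene named outside this rule is said to be. Members and lists were chosen with earlier results of these data known. Alternatives were all 32 arrays, no centring, quantile normalization, no filter, each spot alone, ratios up to 0.05 left out, only the groups compared, array weights, a replicate block and leaving out each array. The number of arrays limits precision.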

Additional observations from a re-analysis of the deposited data

Results flagged for a closer look

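In the groups of 5 arrays (sham and 6 h), single arrays that stood apart from the other 4 by Dixon's criterion were looked for in 44 genes. This happened in 5 of 88 groups, and chance gives about 1 in 20. Sham replicate 4 had a Fxyd4 log2 ratio of 1.03 where its group otherwise spanned -0.07 to 0.14, and a Tgfa ratio of 0.15 where it otherwise spanned 0.84 to 1.00. Slc12a3 was at 0.0139 on replicate 5 at 6 h, against 0.45 to 0.60. Drd2 was at 1.69 on replicate 1 at 6 h, against 0.40 to 0.62. Nherf2 was at -1.42 on replicate 3 at 6 h, against -0.42 to -0.09. No Atp1b1 group met the criterion. Among the flagged arrays, sham replicate 4 (1.39) was its highest sham value and replicate 3 at 6 h (-1.57) its lowest bled value. Replicates 1 and 5 at 6 h (-0.15 and -0.07) were its highest values at 6 h.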

How the results depend on the processing

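Over 40 other settings Atp1b1 stayed called early against late (1.04 to 1.19, adjusted p = 0.0013 to 0.0133) and in the joint test (F = 6.28 to 11.6, adjusted p = 0.000483 to 0.024). At 72 h against sham the direction held, but the call was lost with all 32 arrays (-0.94, adjusted p = 0.160), with spot 2 alone (-1.09, adjusted p = 0.0625) and with only the groups compared (-1.13, adjusted p = 0.0933). Leaving out 1 array gave -1.25 to -0.89 and lost it for 11 of 30 arrays. Calls were gained at 24 h without centring (-1.18, adjusted p = 0.0336), and with array weights at 6 h (-0.87, adjusted p = 0.0481) and 48 h (-0.90, adjusted p = 0.0257). Sham minus control ran from -0.000634 (without sham replicate 4) to 0.38 when 1 array was left out. Genes of the 4 lists called early against late numbered 12, against 6 with all 32 arrays and 21 with array weights. The causes were not tested.

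Of 94 same-numbered pairs of arrays 22 correlated above 0.1 in their deviations (-0.427 to 0.353, median -0.00367). No value for differently numbered pairs is set beside this, so it does not settle whether replicate numbers pair the samples. With a replicate block the early against late difference was 1.06 (adjusted p = 0.0112), F was 10.3 (adjusted p = 0.022) and the 72 h difference -1.14 (adjusted p = 0.0983).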
